A study of Mus musculus with 4 samples.

Results

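The sarcoglycans, sarcospan, utrophin and 3 proteins of membrane repair and membrane domains were examined as mRNAs in tibialis anterior (TA) muscle of young and old mice. The 8 genes are Sgca, Sgcb, Sgcd, Sspn, Utrn, Dysf, Cav3 and Capn3. They were chosen by symbol as genes of the sarcoglycan complex and of membrane repair, and each matched 1 locus per sample. They are 8 of 20340 gene labels with a value in every sample. The muscles came from wild-type C57BL/6 mice, 3 months old for Young and 20 months old for Old, with no treatment named in the labels. Each age had 2 samples, called Young 1, Young 2, Old 1 and Old 2. The label text speaks of triplicates, 2 samples per age were available here, and no label ties a sample to a mouse or gives its sex. The value is the FPKM, a fragment count scaled to transcript length and to the size of the library, so levels of different genes can be set side by side within a sample.

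The sarcoglycans are single-pass membrane proteins that assemble into a complex in the muscle cell membrane. Together with sarcospan, a small protein with several membrane spans, they hold dystroglycan and dystrophin, which tie the actin cytoskeleton of the fiber to the laminin around it. Loss of single sarcoglycans causes limb-girdle muscular dystrophies. Utrophin is a close relative of dystrophin that is concentrated at the neuromuscular junction in adult fibers. Dysferlin takes part in the resealing of torn membrane, caveolin-3 is the muscle caveolin that shapes caveolae and binds dysferlin, and calpain-3 is a muscle protease that binds titin.

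The samples of one age differed in overall scale. Summed FPKM was 698130 in Old 1 and 739302 in Young 2, against 226747 in Old 2 and 251294 in Young 1. The median ratio over tested genes above 0 was 2.16 between Old 1 and Old 2 and 2.12 between Young 2 and Young 1. For 7 of the 8 genes the same ratios ran from 1.90 to 2.0 and from 1.79 to 2.05. Old 1 was therefore set against Young 2 and Old 2 against Young 1, which are the samples of like summed FPKM, and the median ratio over all genes was 0.992 and 0.985 in these pairs. FPKM values hold no read counts, so the depth behind a value and its counting error are unknown. Whether the samples of one age are separate muscles or 1 library cannot be told from these values, and in the second case each age has n = 1. The study speaks of independent mRNA-seq experiments, without saying what was separate. Fast-fiber markers were present, with Mylpf from 4152 to 22820 FPKM and Pvalb from 3244 to 20399 FPKM. Ckm, the creatine kinase of all striated muscle, and Myh4, the myosin of the fastest fibers, were listed at 0 in all 4 samples. The values analysed ran with chromosomes in text order and ended on chromosome 7 in Old 1 and Young 2 and on chromosome 8 in Old 2 and Young 1, so the counts over all genes cover only the part of the genome up to there.

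In the test across all genes, limma on log2(FPKM + 1) as deposited, 0 of the 8 genes passed an adjusted p of 0.05 in either direction, and 0 passed at an unadjusted p of 0.05. Of all 10266 tested genes 31 were called (0.302%), 18 higher and 13 lower in old muscles, and 35 and 42 passed at an unadjusted p of 0.05. The standard errors of this test were close to the difference in scale between samples of one age, with a median of 0.98 over all genes, so a gene that misses the threshold here is not shown to be alike at both ages. After scaling each sample by the median of its ratios to the mean sample, a setting added after the values were seen, 3 of the 8 genes passed, all lower in old muscles. The share of tested genes called lower by this rule was 7.94% and the share called higher was 5.61%. As deposited, the old and young values of all 8 genes overlapped, where 1.93% of tested genes were lower and 1.61% higher without overlap. After scaling, 6 of the 8 genes were lower and 1 was higher without overlap, against 28.4% and 27.8% of tested genes. The exact permutation p of these 7 genes after scaling was 0.333 (two-sided), the smallest that 2 samples per age allow, so this test could not pass 0.05. The calls after scaling rest on single samples. Which genes passed changed when 1 sample was left out, and the call of Sgca held in none of these fits. The log2 fold change after scaling then ran from -0.58 to -0.46 for Sgca, -0.59 to -0.50 for Sgcb and -0.69 to -0.55 for Cav3.

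**Figure D1:**
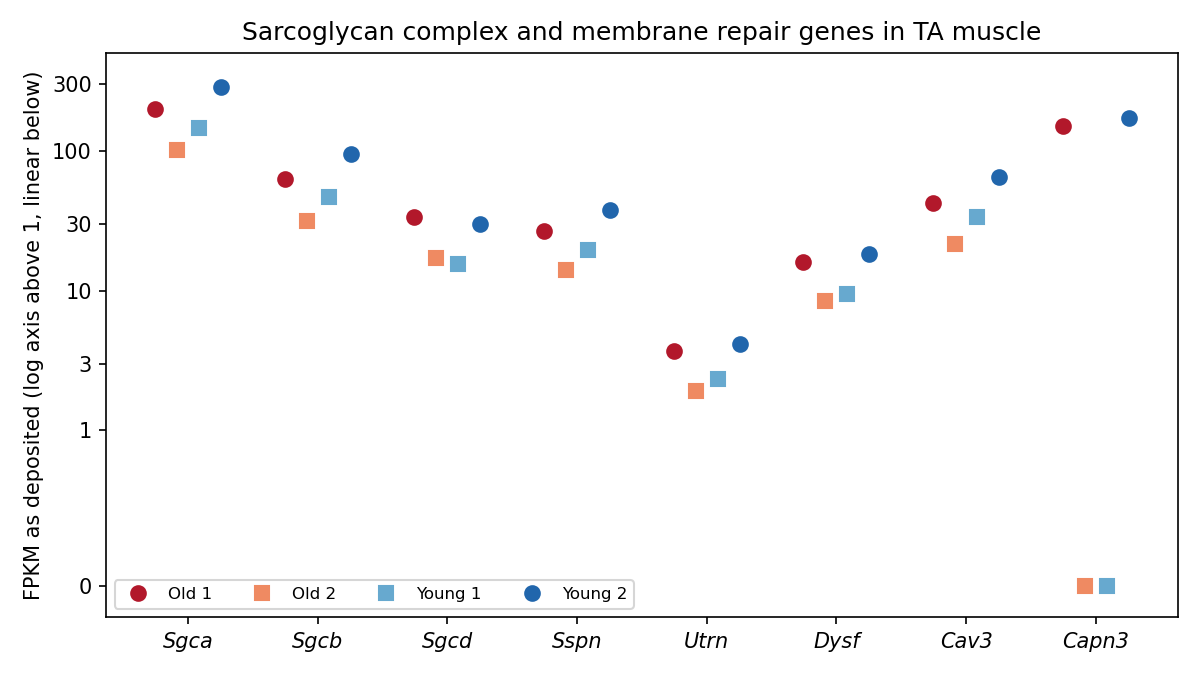
FPKM as deposited (vertical axis, logarithmic above 1 and linear below) of the 8 genes in the 4 samples, with circles for Old 1 and Young 2 and squares for Old 2 and Young 1. For Sgca, Sgcb, Sspn and Cav3 the old circle lies below the young circle and the old square below the young square, and for Capn3 both squares are at 0.

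In both pairs, 4 of the 7 genes above 0 in all samples had an old to young ratio of 0.8 or less (Sgca, Sgcb, Sspn and Cav3), against 22.2% of all 9293 tested genes above 0, and 0 were higher by the same factor, against 18.9%. With at least 1.5-fold, only Cav3 was lower, against 9.37% of all genes, and 0 were higher, against 6.64%. In bulk RNA fewer cells of a type and less RNA per cell cannot be told apart. The median log2 fold change as deposited was -0.32 over the 8 genes and -0.01 over all tested genes. The 8 include Capn3 (-0.10), whose fit averages over values listed at 0 in Old 2 and Young 1.

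**Figure D2:**
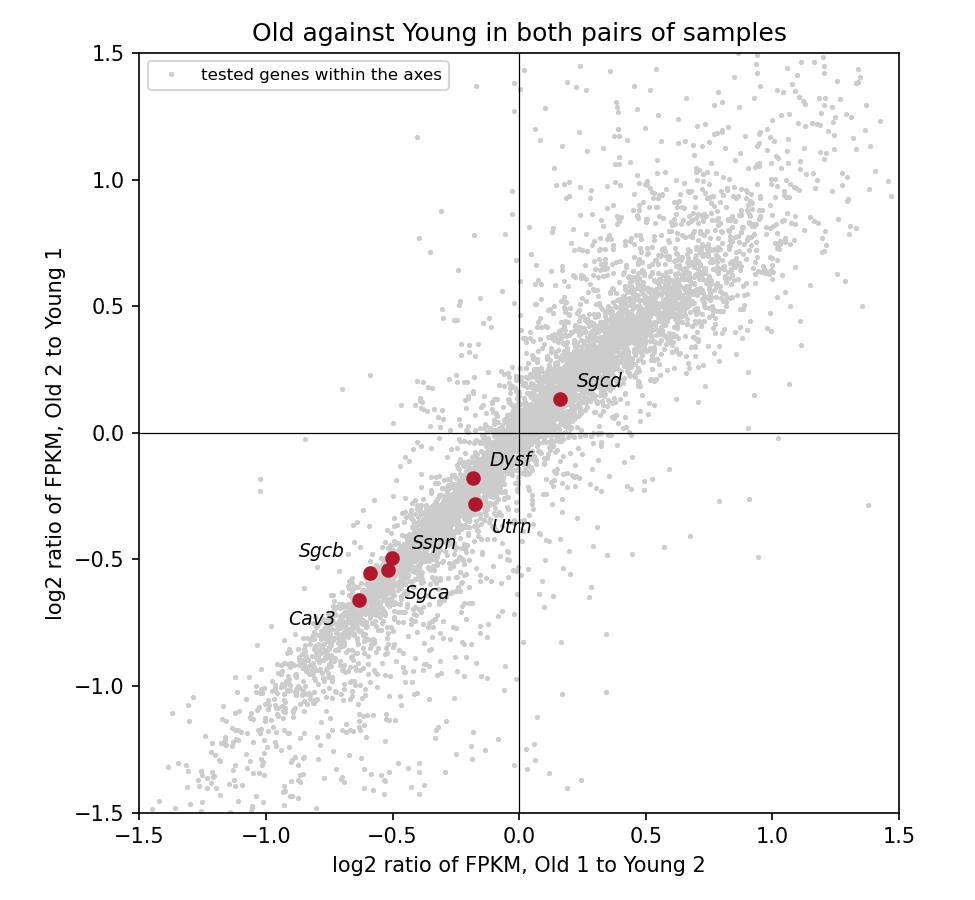
Log2 ratio of FPKM of Old 1 to Young 2 (horizontal axis) and of Old 2 to Young 1 (vertical axis) for tested genes above 0 (grey, those within the axes) and for the 7 genes above 0 in all samples (red). Sgca, Sgcb, Sspn and Cav3 lie together in the lower left, Utrn and Dysf lie nearer to 0, and Sgcd lies on the upper right.

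The DNA before the start sites of the 4 genes that were lower together is shown beside that of Sgcd, which was not. Each sequence is the window of 250 bases before the annotated start from RefSeq (GRCm38.p6, the assembly of mm10), on the strand of the gene, and capitals mark E-boxes (CANNTG), the sites of myogenic factors such as MyoD and of other basic helix-loop-helix proteins. All 8 genes matched a window by symbol, and where a gene had more than 1, the window nearest to the start of the deposited locus was taken. The windows are chr11:94976328-94976577 (minus strand) for Sgca, chr5:73647738-73647987 (minus) for Sgcb, chr6:145933872-145934121 (plus) for Sspn, chr6:112459255-112459504 (plus) for Cav3 and chr11:47379326-47379575 (minus) for Sgcd.
Sgca: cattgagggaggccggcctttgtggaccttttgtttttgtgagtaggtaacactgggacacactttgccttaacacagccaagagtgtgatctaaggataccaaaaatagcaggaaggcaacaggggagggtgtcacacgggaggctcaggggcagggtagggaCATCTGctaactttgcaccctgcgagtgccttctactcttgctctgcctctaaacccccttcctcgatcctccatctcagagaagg
Sgcb: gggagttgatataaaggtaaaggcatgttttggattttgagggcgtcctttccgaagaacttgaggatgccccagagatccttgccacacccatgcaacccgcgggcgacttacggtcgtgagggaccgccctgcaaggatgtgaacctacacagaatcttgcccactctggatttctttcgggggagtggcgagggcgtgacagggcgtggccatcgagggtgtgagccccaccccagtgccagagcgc
Sspn: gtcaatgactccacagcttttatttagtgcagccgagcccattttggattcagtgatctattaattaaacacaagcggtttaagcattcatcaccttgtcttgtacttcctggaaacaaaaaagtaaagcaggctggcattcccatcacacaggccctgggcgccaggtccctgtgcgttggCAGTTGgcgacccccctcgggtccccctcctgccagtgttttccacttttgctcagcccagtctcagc
Cav3: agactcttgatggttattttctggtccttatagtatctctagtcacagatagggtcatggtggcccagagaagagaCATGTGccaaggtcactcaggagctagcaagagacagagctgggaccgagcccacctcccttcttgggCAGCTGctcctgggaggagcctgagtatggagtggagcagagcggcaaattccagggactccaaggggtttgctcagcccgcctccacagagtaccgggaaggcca
Sgcd: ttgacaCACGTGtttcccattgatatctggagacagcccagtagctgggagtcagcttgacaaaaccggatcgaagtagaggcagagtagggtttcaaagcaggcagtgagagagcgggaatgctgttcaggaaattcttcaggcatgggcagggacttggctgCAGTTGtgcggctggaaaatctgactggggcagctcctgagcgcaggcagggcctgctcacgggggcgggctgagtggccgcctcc

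Of the 4 genes, Sgca and Sspn had 1 E-box each, Cav3 had 2 and Sgcb had 0, while Sgcd had 2. The nearest E-box began 86 bases before the start in Sgca and in Sgcd, 68 in Sspn and 106 in Cav3. The deposited loci of Sgca and Sgcd begin upstream of the RefSeq start, by 105 and 195 bases, so that these E-boxes of Sgca and Sgcd lie inside the deposited locus. An E-box was found in 66.2% of 32851 such windows. The CAGCTG form, a subset of the E-boxes, was found in Cav3 among these 5 and in 13% of windows. The MCAT element (CATTCC on either strand) was found in Sspn and Sgcd and in 12.6% of windows, and the TATA box (TATAAA on either strand) in Sgcb and in 12.4%. None of these motifs separated the 4 genes from Sgcd.

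Alpha-sarcoglycan, the subunit found only in striated muscle, was the most abundant of the 8 mRNAs in every sample. Sgca (mm10 locus chr11:94962793-94976432) was at 200 (Old 1) and 100 (Old 2) FPKM in old muscle and at 146 (Young 1) and 287 (Young 2) FPKM in young muscle. Between samples of like scale it was lower in old muscle in both pairs, by 30.1% in Old 1 against Young 2 and by 31.3% in Old 2 against Young 1. The value of Old 1 was above that of Young 1, so the groups overlapped as deposited. The log2 fold change as deposited was -0.53 (standard error 1.02, limma adjusted p = 1.00). After scaling, the values of Sgca were 137 and 148 in Old 1 and Old 2 and 212 and 195 in Young 1 and Young 2, without overlap. The log2 fold change of the scaled values was -0.51 (standard error 0.08, limma adjusted p = 0.0485).

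Beta-sarcoglycan, the partner that forms the core of the complex with the delta subunit, had a lower level in every sample and differed in the same direction. Sgcb (mm10 locus chr5:73632748-73647731) was at 63.3 (Old 1) and 31.6 (Old 2) FPKM in old muscle and at 46.4 (Young 1) and 95.2 (Young 2) FPKM in young muscle. It was 33.6% lower in Old 1 than in Young 2 and 31.9% lower in Old 2 than in Young 1. After scaling, the values of Sgcb were 43.3 and 46.5 in Old 1 and Old 2 and 67.4 and 64.8 in Young 1 and Young 2, without overlap. Limma gave a log2 fold change of -0.56 as deposited (standard error 0.95, adjusted p = 1.00) and -0.55 after scaling (standard error 0.07, adjusted p = 0.0353).

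Sarcospan was lower by nearly the same share. Sspn (mm10 locus chr6:145934147-145965225) was at 26.6 (Old 1) and 14.0 (Old 2) FPKM in old muscle and at 19.7 (Young 1) and 37.7 (Young 2) FPKM in young muscle. It was 29.5% and 28.9% lower in the old sample of the 2 pairs. The log2 fold change was -0.48 as deposited (standard error 0.93, limma adjusted p = 1.00). After scaling it was -0.46 (standard error 0.10, limma adjusted p = 0.0698), which missed the threshold.

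Delta-sarcoglycan did not share this difference. Sgcd (mm10 locus chr11:46971074-47379520) was at 33.8 (Old 1) and 17.0 (Old 2) FPKM in old muscle and at 15.5 (Young 1) and 30.2 (Young 2) FPKM in young muscle. In both pairs the old sample was the higher one, with ratios of 1.12 for Old 1 to Young 2 and 1.10 for Old 2 to Young 1. For Sgcd the log2 fold change was 0.14 as deposited (standard error 0.93, limma adjusted p = 1.00) and 0.15 after scaling (standard error 0.08, limma adjusted p = 0.311).

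A ratio of 2 genes within one sample does not depend on the scale of that sample. The Sgca to Sgcd ratio of FPKM was 5.94 in Old 1 and 5.91 in Old 2, against 9.43 in Young 1 and 9.51 in Young 2. Old and young muscles did not overlap in it. The Sgcb to Sgcd ratio was 1.87 and 1.86 in the old samples and 2.99 and 3.16 in the young samples. The order of Sgcd and Sspn turned over, with a ratio of Sgcd to Sspn of 1.27 and 1.22 in old muscle and 0.789 and 0.802 in young muscle. Sgca to Sgcb differed much less, at 3.17 and 3.18 in the old and 3.15 and 3.01 in the young samples, but also did not overlap. Absence of overlap alone therefore does not set a ratio apart, and its share over all pairs of genes was not counted. Sgca to Sspn ran from 7.19 to 7.55 in old and from 7.44 to 7.62 in young muscle, so that these ranges overlapped. These pairs of genes were picked with the values known, and the ratios are given as a description.

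**Figure D3:**
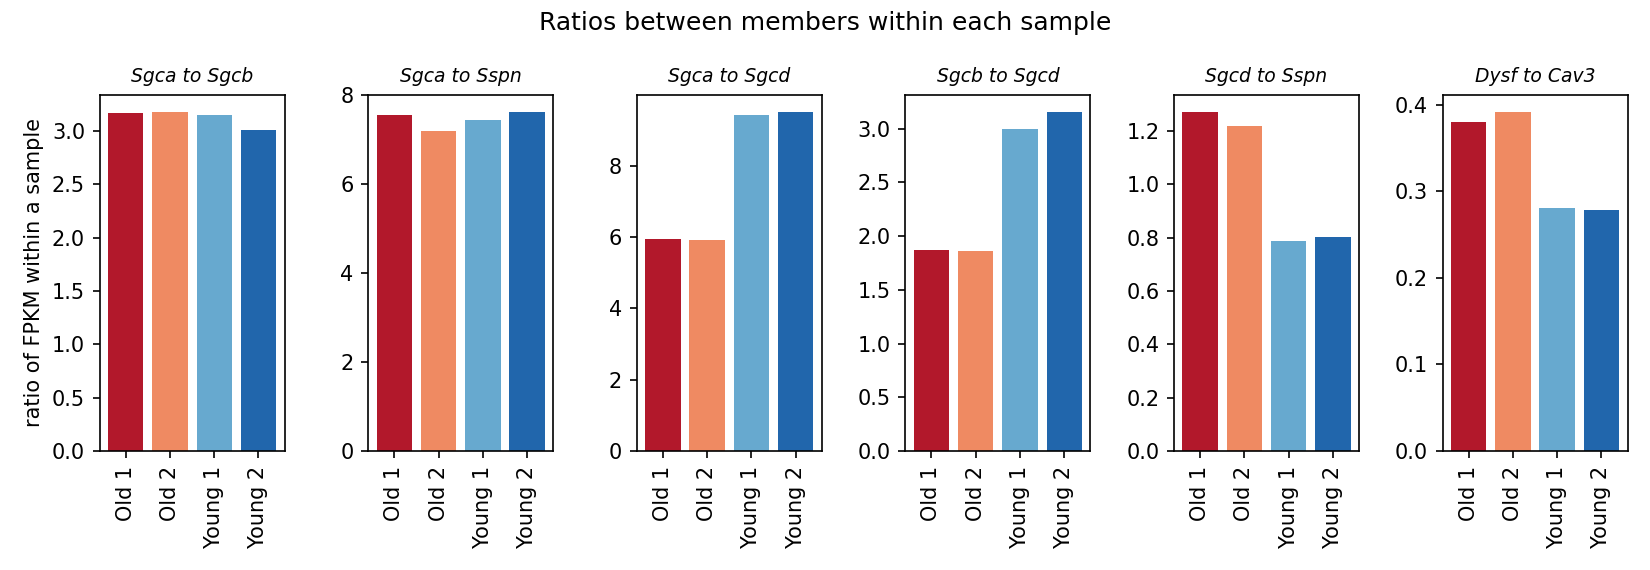
Ratio of FPKM between 2 genes within each sample (vertical axis, starting at 0), 1 panel per ratio and 1 bar per sample. Sgca to Sgcb and Sgca to Sspn differ little between the ages. The ratios of Sgca and Sgcb to Sgcd are lower in both old samples, and those of Sgcd to Sspn and Dysf to Cav3 are higher in both.

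Utrophin had the lowest level of the 7 genes above 0 in every sample. Utrn (mm10 locus chr10:12382039-12868801) was at 3.69 (Old 1) and 1.91 (Old 2) FPKM in old muscle and at 2.32 (Young 1) and 4.16 (Young 2) FPKM in young muscle. It was 11.4% lower in Old 1 than in Young 2 and 17.7% lower in Old 2 than in Young 1. The log2 fold change was -0.17 as deposited (standard error 1.00, limma adjusted p = 1.00) and -0.16 after scaling (standard error 0.11, limma adjusted p = 0.41). Fold changes here are taken after adding 1 FPKM, and at so low a level they come out smaller than the ratios. Of 12 neuromuscular junction genes, where utrophin protein is found, 11 were tested. The summed level of all 12 was 0.764 and 0.752 of the young value in the 2 pairs, but the genes went both ways. Of the 11 tested, 4 had a ratio of 0.8 or less in both pairs and 3 were higher by the same factor, against 22.2% and 18.9% of all genes. At 1.5-fold 4 were lower and 0 higher, against 9.37% and 6.64%. Their part in the utrophin values was not tested.

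Dysferlin was slightly lower in old muscle. Dysf (mm10 locus chr6:84008251-84211049) was at 16.0 (Old 1) and 8.37 (Old 2) FPKM in old muscle and at 9.48 (Young 1) and 18.2 (Young 2) FPKM in young muscle. It was 12.0% and 11.7% lower in the old sample of the 2 pairs. Its log2 fold change was -0.17 as deposited (standard error 0.94, limma adjusted p = 1.00) and -0.16 after scaling (standard error 0.09, limma adjusted p = 0.367).

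Caveolin-3 showed the largest difference of these 7 genes. Cav3 (mm10 locus chr6:112459505-112472872) was at 42.2 (Old 1) and 21.4 (Old 2) FPKM in old muscle and at 33.8 (Young 1) and 65.4 (Young 2) FPKM in young muscle. It was 35.5% lower in Old 1 than in Young 2 and 36.8% lower in Old 2 than in Young 1. After scaling, the values of Cav3 were 28.8 and 31.5 in Old 1 and Old 2 and 49.1 and 44.5 in Young 1 and Young 2, without overlap. Limma gave a log2 fold change of -0.63 as deposited (standard error 0.94, adjusted p = 1.00) and -0.62 after scaling (standard error 0.09, adjusted p = 0.0408). Dysferlin is held at the membrane with caveolin-3, and the ratio of Dysf to Cav3 was 0.380 in Old 1 and 0.392 in Old 2, against 0.281 in Young 1 and 0.278 in Young 2. The CAGCTG box of the Cav3 window was also found in that of Capn3 and in 13% of all windows. The Capn3 window was 1 of 2. Its start site lies 108284 bases from the start of a locus shared with other genes. The nearest window therefore does not show which start was used. The part of this box in the values of Cav3 was not tested.

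With Capn3 left out, the levels followed one order in each sample, from Sgca through Sgcb, Cav3, the pair of Sgcd and Sspn, and Dysf to Utrn. Capn3 ranked between Sgca and Sgcb in Old 1 and Young 2 and was last, at 0, in the others. Across samples, the ranges of neighbours in this order overlapped except at its ends. The lowest Sgca value, 100 FPKM, was above the highest Sgcb value, 95.2 FPKM, and the highest Utrn value, 4.16 FPKM, was below the lowest Dysf value, 8.37 FPKM. Summed over the 7 genes, Sgca held 51.9% and 51.6% in old and 53.5% and 53.4% in young muscle, while Sgcd held 8.75% and 8.74% in old and 5.67% and 5.61% in young muscle.

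Calpain-3 could not be compared between the ages in both pairs. Capn3 had 150 FPKM in Old 1 and 172 FPKM in Young 2, and was listed at 0 in Old 2 and Young 1. In the 1 pair with values the ratio was 0.871, with no replicate check. The deposited locus runs on chromosome 2 from 120355309 to 120563831 (mm10) and is shared by 5 genes, each with its own value and the same coordinates, while RefSeq places Capn3 itself at 120463593 to 120504919. Of the other four, Ganc, Tmem87a and 4931402G19Rik were also listed at 0 in Old 2 and Young 1. Zfp106 was at 372 (Old 1) and 121 (Old 2) FPKM in old muscle and at 97.7 (Young 1) and 276 (Young 2) FPKM in young muscle. The zeros followed the samples of like scale and not age, and the fitted log2 fold change of Capn3, -0.10 (standard error 0.94, limma adjusted p = 1.00), averages over them. That standard error was taken from genes of like level and does not reflect the spread of Capn3. After scaling the standard error was 3.68. A gene used by every muscle fiber at 0 beside more than 100 FPKM can be a failed estimate, so Capn3 is described only as listed at 0 in these samples.

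**Figure D4:**
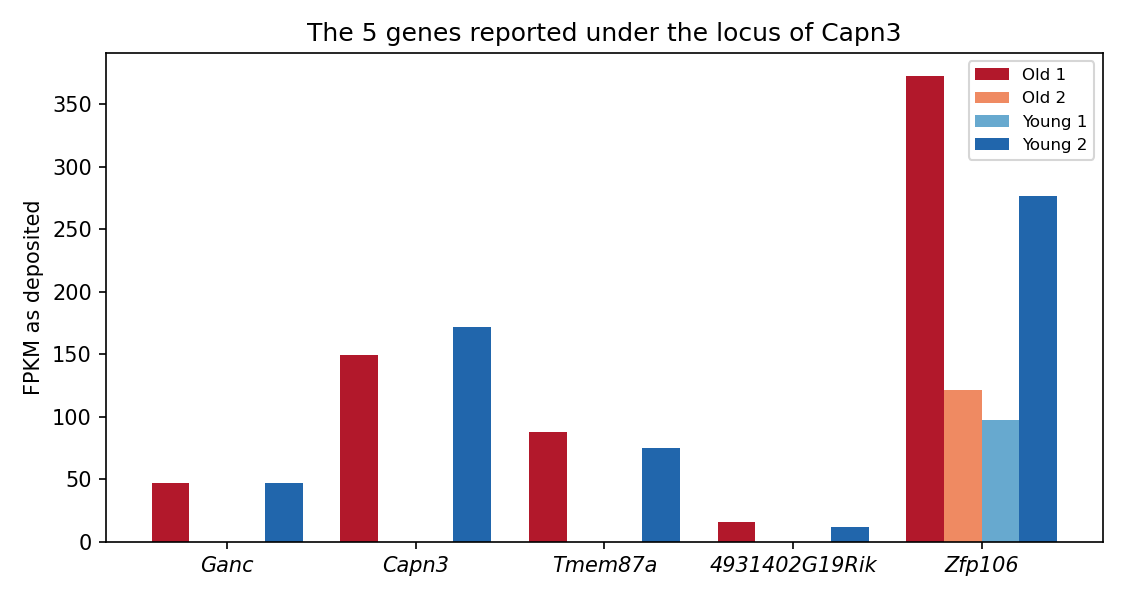
FPKM as deposited (vertical axis) of the 5 genes that carry the coordinates of the Capn3 locus, 1 bar per sample. Capn3, Ganc, Tmem87a and 4931402G19Rik have bars in Old 1 and Young 2 only, and Zfp106 has a bar in all 4 samples.

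The other genes of the same pathway were taken from 6 lists written by hand, with 83 genes in all, of which 66 had a value and 61 were tested. Genes past the end of the values, among them Dmd and Dag1 of dystrophin and dystroglycan, were not analysed here. As deposited 0 of the 61 passed the limma test. Over the 60 genes above 0 in all samples, 19 (31.7%) had a ratio of 0.8 or less in both pairs and 7 (11.7%) were higher in old muscle by the same factor, against 22.2% and 18.9% of all genes. At 1.5-fold the numbers were 9 (15%) lower and 2 (3.33%) higher, against 9.37% and 6.64%. After scaling, limma called 12 of the 61 lower and 4 higher, against 7.94% and 5.61% of all genes. The median log2 fold change as deposited was -0.07.

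Of 14 genes of the dystrophin complex, 7 were tested, with a median log2 fold change of -0.20. Sntb1, a syntrophin, was low and had the largest difference of the list, with 2.81 and 1.09 FPKM in old against 3.78 and 7.77 FPKM in young muscle (Young 1 and Young 2), and ratios of 0.362 and 0.287.

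The caveola list showed unequal differences among its 8 tested genes. Cav1, the caveolin of endothelial and other non-muscle cells, was at 84.8 (Old 1) and 43.8 (Old 2) FPKM in old muscle and at 67.5 (Young 1) and 134 (Young 2) FPKM in young muscle, with ratios of 0.633 and 0.648. Cav2, which assembles with caveolin-1, had ratios of 0.531 and 0.513. The ratio of Cav3 to Cav1 was 0.497 and 0.488 in old and 0.500 and 0.488 in young muscle, so that the muscle and the non-muscle caveolin had nearly equal ratios. The coat protein genes did not follow: Cavin1 had ratios of 1.00 and 1.01 and the muscle cavin gene Cavin4 had 1.14 and 1.02, both named after their values were seen. The highest level of the list was that of the label shared by Arfgap2 and Pacsin3, with ratios of 1.06 and 1.00.

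Of 23 partners in membrane repair, 18 were tested. In both pairs 2 were lower and 1 was higher by at least 1.5-fold, which is near the shares of all genes, 9.37% and 6.64%. Trim72, the gene of MG53, a protein that nucleates the repair patch together with dysferlin and caveolin-3, was at 91.0 (Old 1) and 46.8 (Old 2) FPKM in old muscle and at 71.3 (Young 1) and 142 (Young 2) FPKM in young muscle, with ratios of 0.641 and 0.656. Its ratio to Cav3 hardly moved, with Cav3 at 0.463 and 0.457 of Trim72 in old and 0.474 and 0.460 in young muscle. Ehd1, a membrane remodelling ATPase that binds ferlins, had ratios of 0.602 and 0.594. Anxa7, an annexin that binds membranes in response to calcium, went the other way, with 41.5 (Old 1) and 19.8 (Old 2) FPKM in old muscle, 10.04 (Young 1) and 19.8 (Young 2) FPKM in young muscle, and ratios of 2.1 and 1.98.

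Among 9 other calpain genes, 7 were tested. Capns1, the small subunit that the ubiquitous calpains need, had the highest mean level and ratios of 0.641 and 0.637. In the list of integrin and cytoskeletal linkage 8 of 11 genes were tested. Of the 7 above 0 in all samples, 3 were lower and 0 higher by at least 1.5-fold in both pairs, against 9.37% and 6.64% of all genes. Itga7, the laminin-binding integrin subunit of muscle, had ratios of 0.570 and 0.579, Vcl, the adaptor vinculin, had 0.649 and 0.663, and Flnc, a filamin that binds sarcoglycans, had 0.386 and 0.464. The label shared by Des and Speg, the highest of the list, had ratios of 1.23 and 1.15. Among the enzymes that add sugars to dystroglycan 13 of 17 genes were tested, with a median log2 fold change of -0.02. Only B3galnt2 passed 1.5-fold, higher in old muscle with ratios of 1.56 and 1.53, against 6.64% of all genes.

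**Figure D5:**
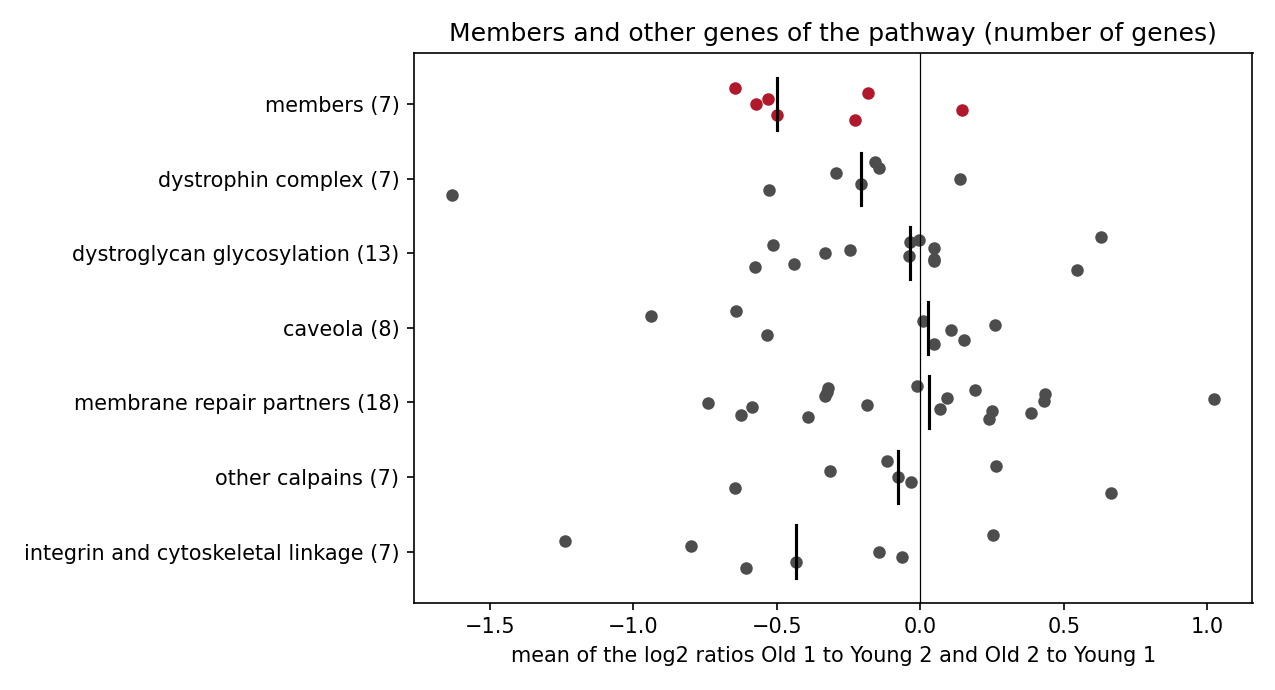
Mean of the 2 log2 ratios (Old 1 to Young 2 and Old 2 to Young 1, horizontal axis) for the 7 genes above 0 in all samples (red) and for the other genes of the pathway by list (grey), with the number of genes in brackets and a black bar at the median of each list. The caveola and repair lists spread to both sides of 0, while 6 of the 7 red points lie below it.

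TA muscle also holds cells other than fibers. The counts that follow are of tested markers above 0 with a ratio of 0.8 or less in both pairs, or higher by the same factor, and the shares of all genes are 22.2% and 18.9%. The sums are over all markers with a value, tested or not. These were 9 Schwann cell, 12 macrophage and leukocyte, 6 satellite cell and 7 adipocyte markers. Of 9 endothelial markers 3 were lower and 1 was higher, and their sum was 0.803 and 0.792 of the young value in the 2 pairs. Of 10 markers of smooth muscle cells and pericytes 4 were lower and 0 higher (sum 0.814 and 0.884), and of 4 Schwann cell markers 2 were lower and 0 higher (sum 0.690 and 0.654). Of 9 markers of macrophages and leukocytes 5 were lower and 1 was higher (sum 0.894 and 0.931), and of 3 satellite cell markers 0 were lower and 0 higher (sum 1.09 and 1.09). The macrophage and leukocyte sum was 45.9 FPKM in Old 1 and 17.7 FPKM in Old 2. Of it, 22.3 and 10.7 FPKM came from the label shared by Cd74 and Mir5107, with ratios of 1.31 and 1.36. The 5 lower markers were Cd68 (0.418 and 0.189), Csf1r (0.735 and 0.745), Mrc1 (0.385 and 0.310), C1qa (0.690 and 0.615) and C1qb (0.693 and 0.610).

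In the fibroblast and adipocyte lists the sum also hid the single genes. As in the macrophage list, genes are named here after their values were seen. Of 11 fibroblast markers 5 were lower and 0 higher, and the sum (0.876 and 0.866) was carried by Gsn, with ratios of 1.16 and 1.13, and Dcn, with 1.24 and 1.21. The collagen genes had much lower ratios, 0.230 and 0.235 for Col1a1, 0.318 and 0.327 for Col1a2 and 0.340 and 0.367 for Col3a1, and all 3 were called lower by limma after scaling (adjusted p = 0.0205, 0.0219 and 0.0214). Of 4 adipocyte markers 3 were higher and 0 lower, although the sum was 0.892 and 0.912. That sum was carried by Fabp4, with ratios of 0.906 and 0.899, and by Cfd, listed at 0 in Old 2 and Young 1, while Adipoq had ratios of 1.97 and 2.17, Plin1 1.36 and 1.48 and Cidec 1.35 and 1.29.

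Slow-fiber markers (5 of 6 with a value) summed to 1167 and 421 FPKM in Old 1 and Old 2. In Young 1 and Young 2 the sum was 27.9 and 73.0 FPKM. As deposited, limma called 5 of the 5 higher in old muscle, against 18 of all 10266 tested genes. Of the skeletal fiber markers 11 of 13 had a value, and their sum was 1.28 and 0.924 of the young value. Ttn, the gene of titin, was listed at 0 in both old muscles, while its young values were 14.1 (Young 1) and 299 (Young 2) FPKM. Ttn was the 1 fiber marker called lower by limma as deposited (adjusted p = 3.57e-07), against 13 of all 10266 tested genes. It missed the threshold of limma after scaling (adjusted p = 0.0661). The standard error as deposited, 0.96, was close to the median over all genes and did not reflect the wide spread of the young values. As with Capn3, zeros of a fiber gene can be failed estimates, so Ttn is described only as listed at 0 in these samples. Neb had 0 FPKM in Old 2 and Young 1. The part of these markers in the values of the 8 genes was not tested.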

How the data were processed

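The mRNA-seq values cover TA muscle of 4 samples, 2 per age. Per the methods of the study, reads were trimmed, freed of PCR duplicates and aligned to mm10 with TopHat2 (2.0.10 in the submitters' processing notes), and the authors deposited FPKM per locus from Cufflinks, run sample by sample with RefSeq genes. Cuffdiff (2.1.1), which the study used between ages, needs reads and was not repeated. The values end on chromosome 7 or 8 in text order, in 1 incomplete last line per sample that was left out, and the 20605 loci in all samples were summed by symbol. Locus starts count from 0 in the deposited values, so 1 was added. Depth is unknown: at most 29.2% of the 1000 low values examined per sample lay within 0.1 of whole reads. Genes at 1 FPKM or more in 2 or more samples were compared on log2(FPKM + 1) with limma 3.58.1 in R 4.3.3 (empirical Bayes with a trend, two-sided, Benjamini-Hochberg over all tested genes). The p-values measure only the spread between these samples, which may be technical. As deposited, limma took the spread of each gene wholly from genes of like level, so the standard error does not reflect the gene's own spread. In the scaled fit the gene's own spread counted as well. For the scaled fit, each sample was divided by the median of its ratios to the geometric mean over 7228 genes (size factors 1.46, 0.680, 0.689 and 1.47 for Old 1, Old 2, Young 1 and Young 2). The fits were tested on simulated data with changes much larger than those of the 8 members. There, with samples of one age differing in scale, the fit on unscaled values did not recover the changed genes and the scaled fit did. Changes as small as those of the members were not simulated, so their calls are not checked by it. The members and lists were chosen with earlier results of these data known. Named were the 8 members, pathway genes with a ratio of at least 1.5 in one direction in both pairs, and the gene with the highest mean in each list under 15 genes. Some genes that this rule or the lists hold are not reported here. The replicate numbers of the labels do not pair the samples (correlation of same-numbered deviations -0.885 over 10266 genes). Exact tests used scipy 1.17.1, and tables and plots Python 3.11.15 with pandas 2.3.3, matplotlib 3.10.9 and numpy 2.4.6. Alternatives were other pseudocounts, filters, scalings and blocks and leaving out each sample. Median-of-ratios scaling, its combinations and the ratio of 0.8 were chosen after seeing the data.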

Additional observations from a re-analysis of the deposited data

How the results depend on the processing

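As deposited, 18 genes were called higher and 13 lower in old muscle, and 0 of the 8 members were called. A minimum of 1 FPKM in every sample left 4 higher and 2 lower, quantile normalization gave 119 and 188, and the replicate number as a block 2 and 3 (same-numbered deviations correlated at -0.885). Blocking on the crossed pairs gave 2812 higher and 3374 lower of the 10266 tested genes, with 6 members lower and 1 higher. Most tested genes were thus called in this setting, so the member counts do not set the members apart. Median-of-ratios scaling gave 576 higher and 815 lower (5.61% and 7.94% of the 10266) with 3 members lower. Together with that minimum it gave 1222 and 1302 of the 7228 genes left, with 4 members lower. The replicate block called 0 members. The causes were not tested. A pseudocount of 0.1, no filter, scaling to one median, the highest locus per symbol and limma without the trend kept both counts within 1.5 times and called 0 members.

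Leaving out each sample in turn gave 0 to 6 genes higher and 0 to 8 lower as deposited, and 0 to 619 higher and 1 to 773 lower after median-of-ratios scaling, where 0 to 3 members were lower. After scaling, 0 genes were higher without Old 2 and without Young 1, with 2 and 1 lower, against 590 higher and 765 lower without Young 2. The log2 fold change as deposited changed sign for Sgcd (-0.33 to 0.62), Utrn (-0.51 to 0.18), Dysf (-0.60 to 0.27) and Capn3 (-3.82 to 3.52), and kept it for Sgca (-1.02 to -0.03), Sgcb (-1.07 to -0.05), Sspn (-0.93 to -0.02) and Cav3 (-1.10 to -0.16). After scaling it changed sign only for Capn3 (-3.63 to 3.35). Depth is unknown and sets no limit that could be computed.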

Other observations

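The zeros of Capn3 had counterparts across the series. Listed at 0 in Old 2 and Young 1 and at 10 FPKM or more in Old 1 and Young 2 were 159 entries, and the opposite pattern was met by 0. Of the 159, 151 (95.0%) shared their locus coordinates with another gene and 8 did not. Among entries at 10 FPKM or more in Old 1 and Young 2, the pattern was held by 14.3% of the 1057 in a shared locus and by 0.247% of the 3240 alone. The pattern was looked for after Capn3 had been seen.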
